A study of Homo sapiens with 16 samples.

Results

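The heat shock chaperones described here are 10 genes, HSPA1A, HSPA1B, HSPA8, HSPH1, DNAJB1, BAG3, HSP90AA1, HSPB1, HSPD1 and HSPE1, chosen by symbol from the 25369 genes of a count table. All 10 had a row and passed the filter on low counts in both cell lines. The name of cytosolic chaperones holds for 8 of them, since HSPD1 and HSPE1 encode the chaperonin of the mitochondrial matrix and its lid.

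RNA-seq of polyadenylated RNA was made in TPC1 and K1 (named K1 (GLAG-66) in the labels), established lines of human papillary thyroid carcinoma that express wild type p53. Cells received 0.2% DMSO as vehicle, 10 µM nutlin (nutlin-3a), 25 µM GSK2830371, or both drugs together (the combination), each for 24 h, with 2 libraries a group, 8 a line and 16 in all. Nutlin frees p53 from its repressor MDM2, and GSK2830371 inhibits the phosphatase PPM1D, which removes phosphates from p53 and other proteins. The lines differed in medium as well as in origin, with TPC1 in RPMI and K1 in DMEM, and the values describe these lines only. The study's methods describe replicates in general as prepared independently, while the labels do not say whether the 2 libraries of a group came from separate cultures, so the p-values measure only the spread between these libraries, which may be in part technical. Cell number and RNA per cell cannot be told apart in such bulk samples.

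Cells that accumulate unfolded protein raise these chaperones through heat shock factor 1 (HSF1). In the resting cell HSP70 and HSP90 hold HSF1 inactive, and once client proteins draw them away, HSF1 forms trimers and binds heat shock elements, arrays of inverted 5-base units with the core GAA, close to the start site. HSPA1A, HSPA1B, DNAJB1, HSPH1, HSPB1 and BAG3 are classical targets of this route, while HSPA8 and HSP90AA1 are abundant also without stress. The integrated stress response is a separate route, in which kinases phosphorylate the initiation factor eIF2α and the translation of ATF4 increases. The comparisons below ask whether the drugs raise the HSF1 group along with the ATF4 targets.

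Because HSF1 reads its sites by their letters, the stretches upstream of the start sites that hold such pairs are shown first. The 250 bases before each start site (RefSeq promoter entries of GRCh38.p14, each found letter for letter in GRCh37, the build of the counts) were searched on both strands for a head-to-head pair GAANNTTC, a tail-to-tail pair TTCNNGAA and the run of 3 units GAANNTTCNNGAA, in which both pairs overlap. Capitals mark the matches, and each sequence reads 5′ to 3′ on the strand of its gene.
HSPA1A, chr6:31783194-31783241, plus strand: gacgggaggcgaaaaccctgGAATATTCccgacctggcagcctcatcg
HSPA1B, chr6:31795390-31795437, plus strand: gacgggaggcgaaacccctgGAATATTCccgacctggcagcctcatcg
HSPA8, distal, chr11:122933042-122933094, minus strand: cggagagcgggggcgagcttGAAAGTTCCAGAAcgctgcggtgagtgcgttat
HSPA8, proximal, chr11:122932867-122932919, minus strand: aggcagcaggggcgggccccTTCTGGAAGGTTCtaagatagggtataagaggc
DNAJB1, chr19:14629229-14629306, minus strand: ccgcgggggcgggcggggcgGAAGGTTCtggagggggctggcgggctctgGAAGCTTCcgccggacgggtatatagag
HSPB1, chr7:75931788-75931835, plus strand: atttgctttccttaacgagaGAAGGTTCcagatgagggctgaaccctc
HSP90AA1, chr14:102553422-102553489, minus strand: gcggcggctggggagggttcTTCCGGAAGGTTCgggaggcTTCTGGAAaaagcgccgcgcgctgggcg
HSPD1, chr2:198364772-198364814, minus strand: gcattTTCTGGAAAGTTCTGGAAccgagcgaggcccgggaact

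A match was present upstream of 7 members, and runs of 3 units stood upstream of HSPA8 (in 2 places), HSP90AA1 and HSPD1. Among 35116 RefSeq promoters of the same length, 5.78% held the head-to-head pair, 6.62% the tail-to-tail pair and 0.441% the run of 3 units. The sites closest to the start were at −55 to −43 in HSPA8, −47 to −40 in DNAJB1 and −68 to −61 in HSP90AA1. HSPD1 and HSPE1 lie head to head on chromosome 2, with 538 bases between the start sites of their canonical transcripts. The 18-base array shown for HSPD1 ends 294 bases from that HSPE1 start, outside the window searched for HSPE1, which held no match. The GENCODE span of HSPE1 begins upstream of that start, at chr2:198364864, and so nearer to the array. BAG3 and HSPH1 held none either, and the HSPH1 entry lies 484 bases from the start of its canonical transcript. The stretches of HSPA8, DNAJB1, HSP90AA1 and HSPD1 lie upstream of the RefSeq start but inside the span of longer transcripts that GENCODE lists for these genes. HSPE1 (chr2:198364864-198368173), BAG3 (chr10:121410892-121437331) and HSPH1 (chr13:31709110-31736525, minus strand) complete the group. A match is a string of letters, not a measured site.

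**Figure D1:**
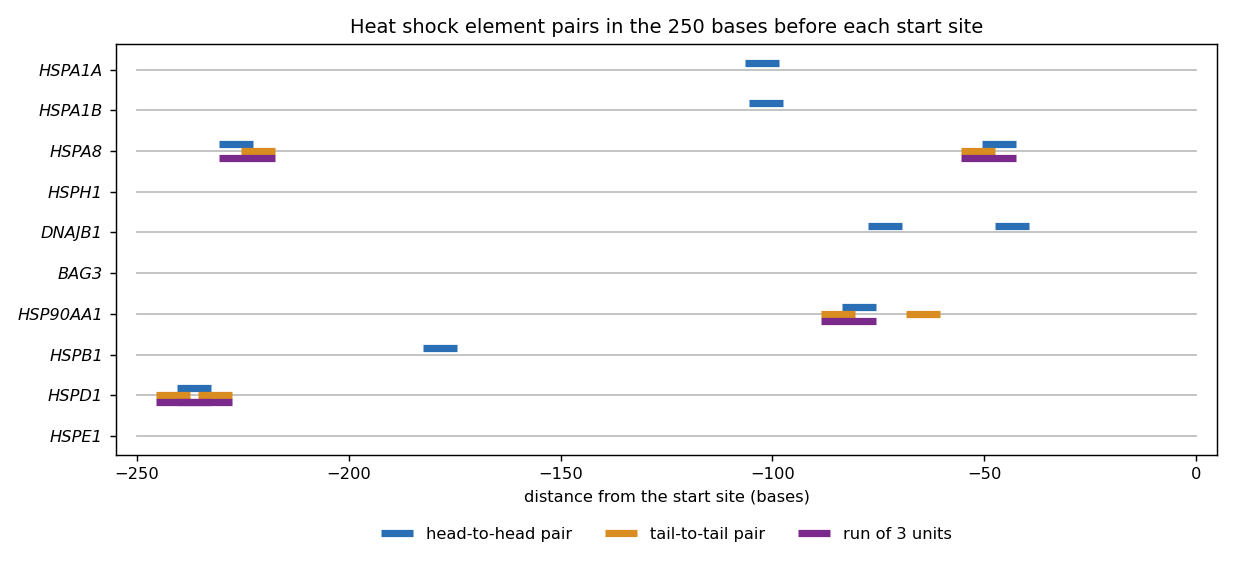
Positions of the heat shock element pairs relative to the start site (horizontal axis, bases) for each member (rows); blue marks GAANNTTC, orange TTCNNGAA and purple GAANNTTCNNGAA. The 2 runs of HSPA8 lie at −230 to −218 and −55 to −43, and the rows of HSPH1, BAG3 and HSPE1 are empty within 250 bases.

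The libraries held 30789887 to 76648552 counts in TPC1 and 28888686 to 37161241 in K1. In every library the members with the fewest counts were HSPA1A (33 to 138 counts in TPC1, 473 to 1414 in K1) and HSPA1B or HSPE1, so HSPA1A in TPC1 had the widest counting error. Levels are given in CPM, counts normalised to library size with TMM factors over all 16 libraries. The p53 target CDKN1A, which with MDM2 checks the labels, had 138 ± 19.1 CPM in TPC1 DMSO and 6908 ± 126 under nutlin (mean ± SD, n = 2). In K1 its means were 113 ± 5.03 and 1011 ± 62.1 CPM, and MDM2 rose in both lines as well, by 4.96 on the log2 scale in TPC1 and 3.05 in K1. Of the markers of thyroid origin, PAX8 (298 to 838 CPM) and FOXE1 (22.3 to 38.1 CPM) were present in all 16 libraries, NKX2-1 had no count in TPC1 and at most 10 in a K1 library, and TSHR had none anywhere. KRT8 and KRT18 exceeded 118 CPM in all libraries.

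HSPA8 and HSP90AA1, the members abundant also without stress, led in untreated cells. Per kilobase of the canonical transcript, HSPA8 (the constitutive HSP70) stood highest in DMSO at 1625 CPM in TPC1 and 1408 CPM in K1, followed by HSP90AA1 at 1338 and 557 CPM. HSPD1 (458 and 276 CPM per kilobase) and HSPB1 (343 and 175) came next, and HSPE1, BAG3, DNAJB1 and HSPH1 lay between 59.7 and 153 CPM per kilobase in TPC1 and between 51.6 and 155 in K1. The inducible HSP70 genes were lowest, HSPA1B at 15.0 and 19.5 and HSPA1A at 0.648 and 8.21 CPM per kilobase. Neighbours in this order did not overlap between their DMSO libraries in either line. The first 4 and the last 2 ranks were the same in both lines, and DNAJB1 stood above HSPE1 and BAG3 in K1 and below them in TPC1. HSPA1A and HSPA1B are near-identical copies on chromosome 6 (31783320-31785723 and 31795515-31798031 in GRCh37): 69.6% of the 150-base windows of the HSPA1A transcript occur unchanged in HSPA1B, and reads from such windows map to both copies and would be lost with the reads of low mapping quality, so both levels and their split are uncertain. HSPA8, HSP90AA1, HSPD1 and HSPE1 have many processed pseudogenes and may have lost reads in the same way.

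**Figure D2:**
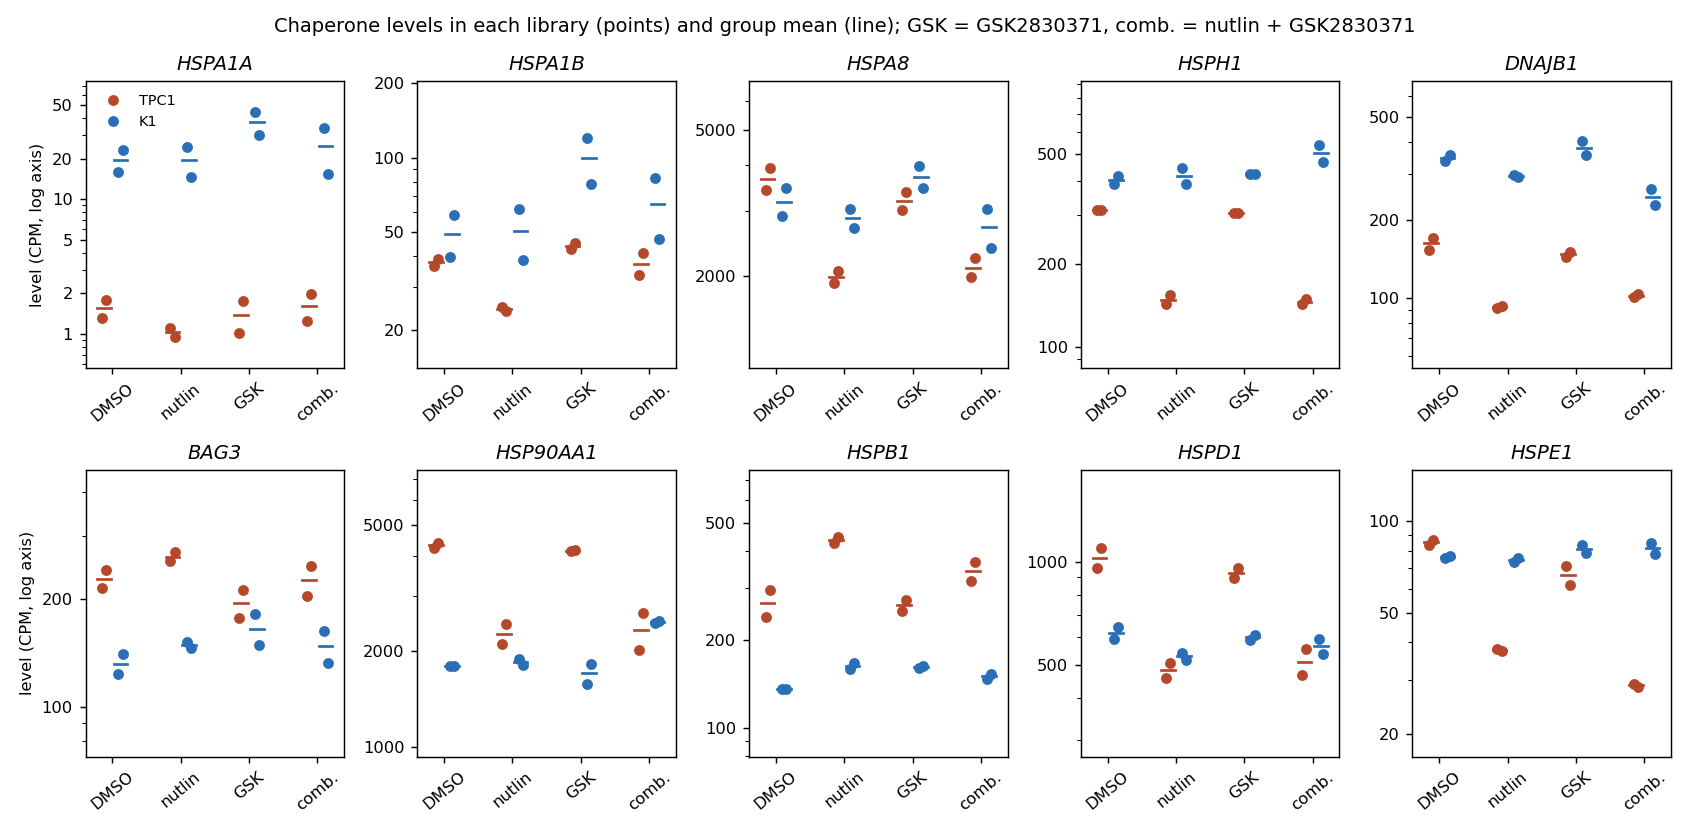
CPM of each member (log axis, scaled per panel) under DMSO, nutlin, GSK2830371 and the combination; points are libraries, short bars group means, red TPC1 and blue K1. In TPC1 the levels of HSPA8, HSPH1, DNAJB1, HSP90AA1, HSPD1 and HSPE1 under nutlin and the combination lie below both DMSO libraries, whereas the K1 points of HSPA1A and HSPA1B spread widely within a group.

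Nutlin lowered most of the group in TPC1 and moved it little in K1. A gene is called below when its edgeR quasi-likelihood p, adjusted by Benjamini-Hochberg over all genes tested in that line, was under 0.05 and its fold change above 1.5 (0.58 on the log2 scale), and the words rose and fell are used for adjusted p under 0.05. In TPC1 nutlin against DMSO, 7 of the 10 members were called lower and 1 higher, where 18% of the 15273 genes tested were called lower and 17.5% higher. The members' median log2 fold change was −0.89, against −0.0018 over all genes tested. In K1 none was called in either direction, where 3.84% of the 15900 genes tested were called higher and 5.43% lower, and the median was 0.0066. The difference between the lines is tested further on.

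The HSP70 branch shows this first. HSPA8, which folds new proteins and uncoats vesicles, had 3418.5 and 3939.5 CPM in the TPC1 DMSO libraries and 1910 and 2057 under nutlin. Both treated libraries lay far below both controls. The log2 fold change was −0.92 ± 0.10 (SE), with edgeR adjusted p = 5.25e-05. In K1 HSPA8 held 2904 and 3470 CPM in DMSO and 3043 and 2693 under nutlin, where the libraries overlapped (log2 fold change −0.15, 95% interval −0.39 to 0.086, edgeR adjusted p = 0.343).

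HSPH1 (HSP110, the nucleotide exchange factor of HSP70) had 313.0 and 313.4 CPM in TPC1 DMSO and 143 and 153 under nutlin. This was the tightest control pair of the group, and the drop of −1.12 ± 0.073 on the log2 scale had an edgeR adjusted p of 1.81e-06. Its K1 libraries ran from 388 to 446 CPM under nutlin and 389.7 to 415 in DMSO, and overlapped.

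DNAJB1, the HSP40 that hands clients to HSP70 and returns HSF1 to rest, went from 154 and 171 CPM in TPC1 DMSO to 91.4 and 93.0 under nutlin. The fall was −0.85 ± 0.071 (edgeR adjusted p = 9.79e-06). In K1 2 members fell, DNAJB1 and HSPD1. DNAJB1 went from 338 and 356 to 297 and 294 CPM, by −0.23 ± 0.071 (edgeR adjusted p = 0.0248), short of the 1.5-fold threshold.

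Of the inducible HSP70 copies HSPA1B fell in TPC1 and HSPA1A had a like value with a wider error. HSPA1B had 36.4 and 38.8 CPM in DMSO and 24.9 and 23.9 under nutlin, with no overlap (−0.66 ± 0.10, edgeR adjusted p = 0.000455). HSPA1A had 1.32 and 1.79 CPM against 1.11 and 0.948, likewise apart but at 33 to 128 counts a library. Its value of −0.67 ± 0.33 did not pass (edgeR adjusted p = 0.109). With the library number as a block, which the TPC1 libraries follow, it did (−0.70, edgeR adjusted p = 0.0234), and the members called lower became 8. When the counts of both copies were summed the change was −0.66 (edgeR adjusted p = 0.000575). In K1 both copies had wide and overlapping libraries, HSPA1A with 16.1 and 23.3 CPM in DMSO and 24.7 and 14.5 under nutlin.

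BAG3, which links HSP70 to selective autophagy, did not go with them. Its TPC1 libraries held 215 and 242 CPM in DMSO and 255 and 271 under nutlin, which do not overlap, at a log2 fold change of 0.17 (edgeR adjusted p = 0.218, and 0.0181 with the block). In K1 the change was 0.18 (edgeR adjusted p = 0.226).

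HSP90AA1, the inducible HSP90 of the cytosol, had 4232 and 4404 CPM in TPC1 DMSO and 2112 and 2432 under nutlin. No other member held more counts in TPC1 DMSO, and its log2 fold change was −0.96 ± 0.13 (edgeR adjusted p = 0.000177). Its K1 levels were 1796 and 1802 CPM in DMSO and 1893 and 1814 under nutlin (0.043, edgeR adjusted p = 0.667).

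HSPB1 (HSP27), a small heat shock protein that holds unfolded clients and binds actin, went the other way. It rose in TPC1 from 238 and 295 CPM to 427 and 447, by 0.68 ± 0.11 (edgeR adjusted p = 0.000492), and was the sole member called higher. The call did not outlast 2 changes: the value was 0.55 without DMSO library 1 and 0.51 with GC content and length removed, both under 1.5-fold at an edgeR adjusted p of 0.00243 and 3.45e-05. In K1 HSPB1 also rose, from 135 and 136 to 159 and 167 CPM, by 0.26 ± 0.052 (edgeR adjusted p = 0.00166).

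The mitochondrial chaperonin pair had the most negative values of the 10. HSPD1, the HSP60 barrel, had 960.4 and 1094 CPM in TPC1 DMSO and 457 and 506 under nutlin (−1.13 ± 0.10, edgeR adjusted p = 1.58e-05). HSPE1, the HSP10 lid encoded next to it, had 83.6 and 86.9 CPM against 37.9 and 37.5 (−1.21 ± 0.093, edgeR adjusted p = 5.2e-06). Treated and control libraries were far apart for both. In K1 HSPD1 fell by 0.23 on the log2 scale (edgeR adjusted p = 0.0111), whereas HSPE1 held 75.9 and 76.9 CPM in DMSO and 73.2 and 75.5 under nutlin.

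**Figure D3:**
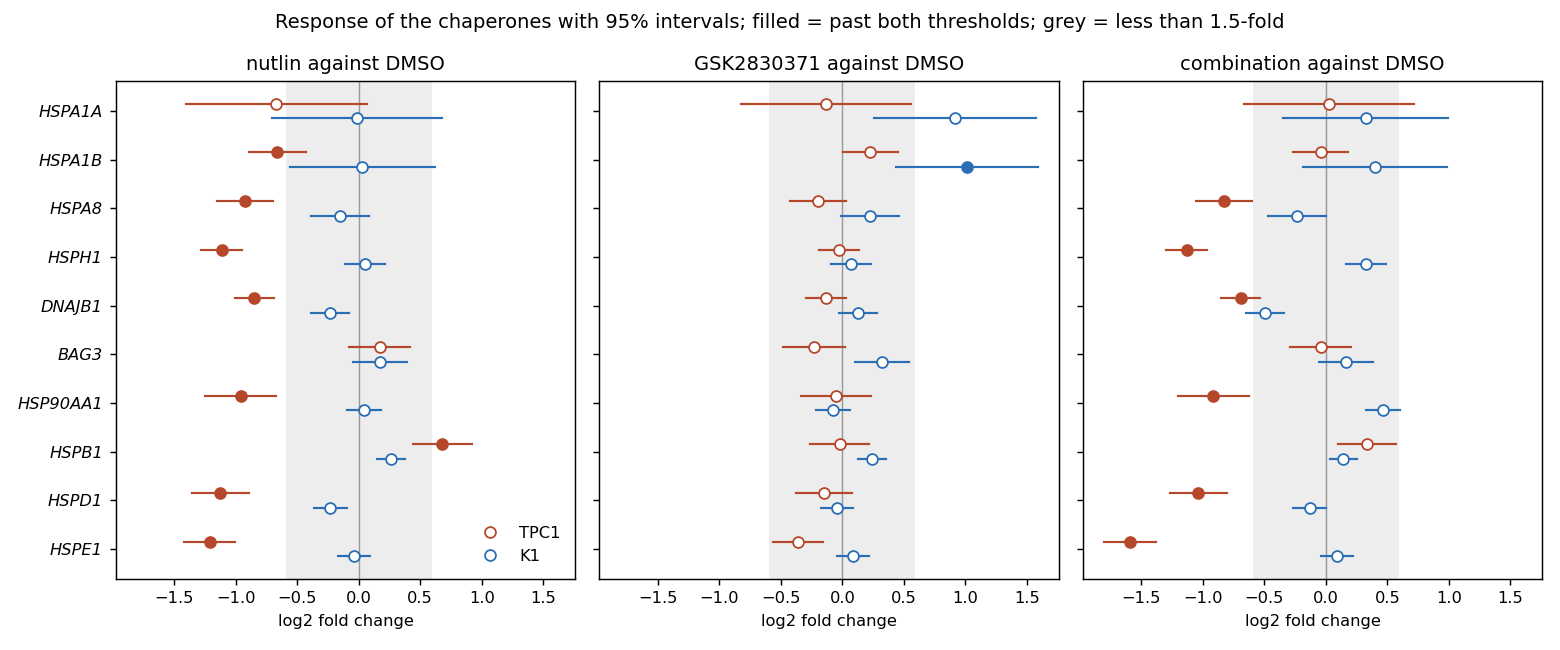
Log2 fold change against DMSO (horizontal axis) with 95% intervals for nutlin, GSK2830371 and the combination; red is TPC1, blue K1, filled points passed both thresholds and the grey band is less than 1.5-fold. In TPC1 the filled points of nutlin and the combination lie to the left except HSPB1 under nutlin at 0.68, and the single filled K1 point is HSPA1B under GSK2830371 at 1.01.

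Under GSK2830371 alone the members of TPC1 stayed near their DMSO levels. None of 10 was called, where 0.72% of genes were called higher and 0.681% lower, and the log2 fold changes ran from −0.36 to 0.23 with a median of −0.13 (−0.0063 over all genes). The largest was HSPE1, with 71.0 and 61.7 CPM under the drug against 83.6 and 86.9 in DMSO. Its fall of 0.36 on the log2 scale missed the threshold (edgeR adjusted p = 0.069) but passed with the block (−0.37, edgeR adjusted p = 0.00164), as did HSPA8 and BAG3 downward and HSPA1B upward, all under 1.5-fold. With the block the calls over all genes went from 110 higher and 104 lower to 239 and 241. In the same comparison 14 of 20 ATF4 targets were called higher and none lower, with a median of 0.91.

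In K1 the inducible HSP70 genes were higher under GSK2830371, with a wide spread. HSPA1B had 39.7 and 58.6 CPM in DMSO and 120.3 and 78.4 under the drug, and HSPA1A 16.1 and 23.3 against 44.5 and 30.1, so that neither gene's groups overlapped. HSPA1B was called (1.01 ± 0.27, 2.02-fold, edgeR adjusted p = 0.0178) and HSPA1A was not (0.92 ± 0.31, edgeR adjusted p = 0.051), so 1 of 10 members was called higher and none lower, where 0.736% and 1.49% of genes were. The call rests on few libraries: HSPA1B was at 0.76 without the first DMSO library (edgeR adjusted p = 0.133) and at 0.67 without the first GSK2830371 library (edgeR adjusted p = 0.155). DESeq2 gave 1.00 with adjusted p = 0.119, and removal of GC content and length gave 0.87 with edgeR adjusted p = 0.0565, while the summed copies passed at 0.99 (edgeR adjusted p = 0.0243). HSPA1A in turn was called without the second GSK2830371 library (1.17, edgeR adjusted p = 0.0172) or without either combination library (0.91 and 0.92, edgeR adjusted p = 0.0176 and 0.0151).

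BAG3 and HSPB1 rose less in the same K1 comparison. BAG3 went from 123 and 141 CPM to 182 and 149 (0.32 ± 0.10, edgeR adjusted p = 0.0395), HSPB1 from 135 and 136 to 159 and 162 (0.24 ± 0.052, edgeR adjusted p = 0.00549). HSPA8, HSPH1, DNAJB1, HSP90AA1, HSPD1 and HSPE1 did not pass, at −0.078 to 0.23. HSF1 itself rose by 0.18 ± 0.055 (edgeR adjusted p = 0.0379), from 102 and 103 CPM to 119 and 113. Of 20 ATF4 targets 1 was called higher, where 0.736% of all genes were. With GC content and length removed, calls over all genes in this comparison went from 117 higher and 237 lower to 59 and 68.

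In TPC1 the combination lowered HSPA8, HSPH1, DNAJB1, HSP90AA1, HSPD1 and HSPE1. HSPB1 rose, and HSPA1A (0.023), HSPA1B (−0.043) and BAG3 (−0.043) did not pass the test. Called lower were 6 of 10 members and called higher none, where 21.7% and 22.5% of genes were, and the median was −0.76 (0.0035 over all genes). HSPE1 fell furthest, to 29.0 and 28.6 CPM from 83.6 and 86.9 in DMSO (−1.59 ± 0.094, edgeR adjusted p = 6.56e-07). The log2 fold changes of the other 5 were −1.13 for HSPH1, −1.04 for HSPD1, −0.92 for HSP90AA1, −0.83 for HSPA8 and −0.69 for DNAJB1, with edgeR adjusted p from 1.15e-06 to 0.000185.

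HSPA1B was called lower under nutlin and not in the combination. Its combination libraries held 33.3 and 41.0 CPM, on either side of the 36.4 and 38.8 of DMSO (−0.043, 95% interval −0.27 to 0.18, edgeR adjusted p = 0.723). Against nutlin alone it was higher by 0.62 ± 0.10 (edgeR adjusted p = 0.00266), the sole member of 10 called higher there, with none called lower, where 6.46% and 5.66% of genes were. Without combination library 3 the value was 0.47 and without nutlin library 3 it was 0.58, both under 1.5-fold. HSPA1A, at 1.24 and 1.97 CPM in the combination, was 0.69 above nutlin (edgeR adjusted p = 0.154) and was called with the block (0.73, edgeR adjusted p = 0.031), which made 2 members. The block also took DNAJB1 (0.16) and BAG3 (−0.22) past the test, under 1.5-fold.

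HSPB1 and HSPE1 fell between nutlin and the combination. HSPB1 had 317 and 367 CPM in the combination against 427 and 447 under nutlin (−0.35 ± 0.10, edgeR adjusted p = 0.0392), but stayed above DMSO by 0.33 ± 0.11 (edgeR adjusted p = 0.0198). HSPE1 was 0.38 lower on the log2 scale in the combination than under nutlin (edgeR adjusted p = 0.0162). Against GSK2830371 alone, 5 members were called lower (HSPA8, HSPH1, HSP90AA1, HSPD1 and HSPE1, −1.23 to −0.63) and none higher, where 19% and 19.5% of genes were. HSPA8 fell short of 1.5-fold there without combination library 1 (−0.55) and without GSK2830371 library 3 (−0.57).

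In K1 the combination separated the members. None was called against DMSO, where 7.62% of genes were called higher and 8.09% lower, but 4 passed the test below 1.5-fold. HSP90AA1 rose from 1796 and 1802 to 2465 and 2500 CPM (0.46 ± 0.064, edgeR adjusted p = 5.07e-05) and HSPH1 from 389.7 and 415 to 541 and 468 (0.33 ± 0.075, edgeR adjusted p = 0.00308). Both groups lay clear of their controls. DNAJB1 fell from 338 and 356 to 263 and 229 CPM (−0.50 ± 0.072, edgeR adjusted p = 7.38e-05), and reached 1.5-fold without the first combination library (−0.60, edgeR adjusted p = 0.000137). HSPB1 rose by 0.14 (edgeR adjusted p = 0.0394).

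The inducible HSP70 genes had 1 high and 1 low library in the K1 combination. HSPA1B had 83.0 and 46.7 CPM in the 2 combination libraries against 39.7 and 58.6 in DMSO, and HSPA1A 34.0 and 15.4 against 16.1 and 23.3, so both overlapped their controls. Without the second combination library both were called higher, HSPA1B at 0.76 and HSPA1A at 0.79 (edgeR adjusted p = 0.046 and 0.0399). HSP90AA1 and HSPH1 also stood above nutlin alone, by 0.42 and 0.27, and DNAJB1 below it, by −0.27 (edgeR adjusted p = 0.00106, 0.031 and 0.0279). No member was called against nutlin, where 1.16% of genes were called higher and 1.52% lower.

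Against GSK2830371 alone DNAJB1 was the 1 member called in K1, lower by −0.63 ± 0.072 (edgeR adjusted p = 1.28e-05), where 6.3% of genes were called higher and 6.75% lower. It fell below 1.5-fold without the first GSK2830371 library (−0.54), without the second combination library (−0.53) and with GC content and length removed (−0.51). HSPA8 fell by 0.46 on the log2 scale (edgeR adjusted p = 0.00447), and HSP90AA1 was higher by 0.54 (edgeR adjusted p = 1.68e-05). Without the first combination library HSPA1A (−1.28), HSPA1B (−1.09) and HSPA8 (−0.64) were called lower also, and without the second GSK2830371 library HSPA1A (−0.85) and HSPA1B (−0.89) lower and HSP90AA1 (0.65) higher, so that 4 members were called each time.

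The interaction asks whether the effect of the combination exceeds the sum of the single drug effects on the log2 scale. No member was called in TPC1, where 6.32% of genes were called in either direction, nor in K1, where 2.44% were. In K1 the interaction was 0.50 ± 0.090 for HSP90AA1 (edgeR adjusted p = 0.00981), −0.39 ± 0.10 for DNAJB1 (edgeR adjusted p = 0.0307) and −0.36 ± 0.073 for HSPB1 (edgeR adjusted p = 0.0134). The K1 libraries of HSP90AA1 were high in the combination alone, and its value was 0.61, past 1.5-fold, without the second GSK2830371 library. In TPC1 no member passed, whereas with the block 4 passed upward (HSPA1B, HSPA8, DNAJB1 and HSPD1, 0.23 to 0.40) and HSPB1 downward (−0.33), while the calls over all genes went from 431 higher and 534 lower to 714 and 859.

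The lines differed in both the resting levels and the response. In DMSO 6 members were called different between K1 and TPC1: HSPA1A (3.62 ± 0.39 on the log2 scale, 12.3-fold) and DNAJB1 (1.10 ± 0.083) were higher in K1, and HSP90AA1 (−1.26 ± 0.11), HSPB1 (−0.97 ± 0.095), BAG3 (−0.79 ± 0.13) and HSPD1 (−0.73 ± 0.096) lower, with edgeR adjusted p from 4.47e-09 to 3.28e-05. In this fit of all 16 libraries, 25% of 16738 genes were called higher in K1 and 21.2% lower. HSPA1B, the copy of HSPA1A, was at 0.38 ± 0.26 (edgeR adjusted p = 0.195). HSPA1A rested on 50 and 128 counts in the TPC1 DMSO libraries, and the split of reads between the copies is uncertain. Whether the ratio of their levels differs between the lines was not tested.

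The effect of nutlin differed between the lines for 5 members, where 8.73% of genes had a higher effect in K1 and 10.5% a lower one. The differences, K1 minus TPC1 on the log2 scale, were 1.14 ± 0.11 for HSPE1, 1.13 ± 0.12 for HSPH1, 0.97 ± 0.16 for HSP90AA1, 0.86 ± 0.13 for HSPD1 and 0.74 ± 0.18 for HSPA8, with edgeR adjusted p from 8.78e-07 to 0.00495. All 5 fell under nutlin in TPC1, and of these only HSPD1 fell in K1. DNAJB1 was at 0.58 ± 0.12, just under 1.5-fold (edgeR adjusted p = 0.00109), and passed it with DESeq2 (0.61, adjusted p = 6.67e-06), with library size alone (0.64) or when any of 4 libraries was left out. Its value ran from 0.50 to 0.66 with each library left out in turn. HSPB1 differed the other way, at −0.45 ± 0.13 (edgeR adjusted p = 0.0158), and at −0.62, past 1.5-fold, without TPC1 DMSO library 3. BAG3 was at −0.030 (edgeR adjusted p = 0.957).

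For the combination 4 members differed, HSPE1 (1.66 ± 0.11), HSPH1 (1.43 ± 0.12), HSP90AA1 (1.35 ± 0.16) and HSPD1 (0.88 ± 0.13), with edgeR adjusted p from 9.61e-09 to 7.37e-05, where 11.9% of genes had a higher effect in K1 and 13.8% a lower one. HSPH1 and HSP90AA1 fell in TPC1 and rose in K1. HSPA8 was at 0.57 ± 0.18, just under 1.5-fold (edgeR adjusted p = 0.0194), and passed it when any of 4 libraries was left out or with DESeq2 (0.59, adjusted p = 0.00311). Its value ran from 0.35 to 0.73 with each library left out in turn. DNAJB1 fell in both lines, and its difference was 0.17 ± 0.12 (edgeR adjusted p = 0.282). For GSK2830371 no member's effect was called different, where 2.18% of genes were in either direction. HSPE1 passed the test below 1.5-fold, at 0.45 ± 0.11 (edgeR adjusted p = 0.0305). HSPA1B, called in K1 and not in TPC1, had a difference of 0.79 ± 0.36 (edgeR adjusted p = 0.229), so the lines were not shown to differ in it. BAG3 was at 0.56 (edgeR adjusted p = 0.0847), and at 0.64 without TPC1 DMSO library 1 (edgeR adjusted p = 0.0421) and 0.69 without the second K1 GSK2830371 library (edgeR adjusted p = 0.049).

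The 2 libraries of a K1 group differed in a shared order for 6 members, HSPA1A and HSPA1B among them. In DMSO the second library was the higher for HSPA1A, HSPA1B, HSPA8, HSPH1, DNAJB1 and BAG3, and under each of the 3 drug treatments the first library was the higher for all 6. The difference between the 2 combination libraries on the log2(CPM + 1) scale was 1.10 for HSPA1A, 0.82 for HSPA1B, 0.35 for HSPA8, 0.30 for BAG3, 0.21 for HSPH1 and 0.20 for DNAJB1. Among all K1 genes of at least 5 CPM, 11.5% had this order of libraries in all 4 groups. The order compared was that of HSPA8, itself a member. HSPB1, HSP90AA1, HSPD1 and HSPE1 did not share it, and their K1 libraries differed by at most 0.21 in any group. The part of this spread in the GSK2830371 values of HSPA1A and HSPA1B was not tested. A shared order was present in TPC1 too, where library 3 was the higher in all 4 groups for 33% of genes of at least 5 CPM. HSPA8, HSPH1, DNAJB1, HSPB1, HSP90AA1, HSPD1 and BAG3 were among them, and HSPA1A, HSPA1B and HSPE1 were not.

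**Figure D4:**
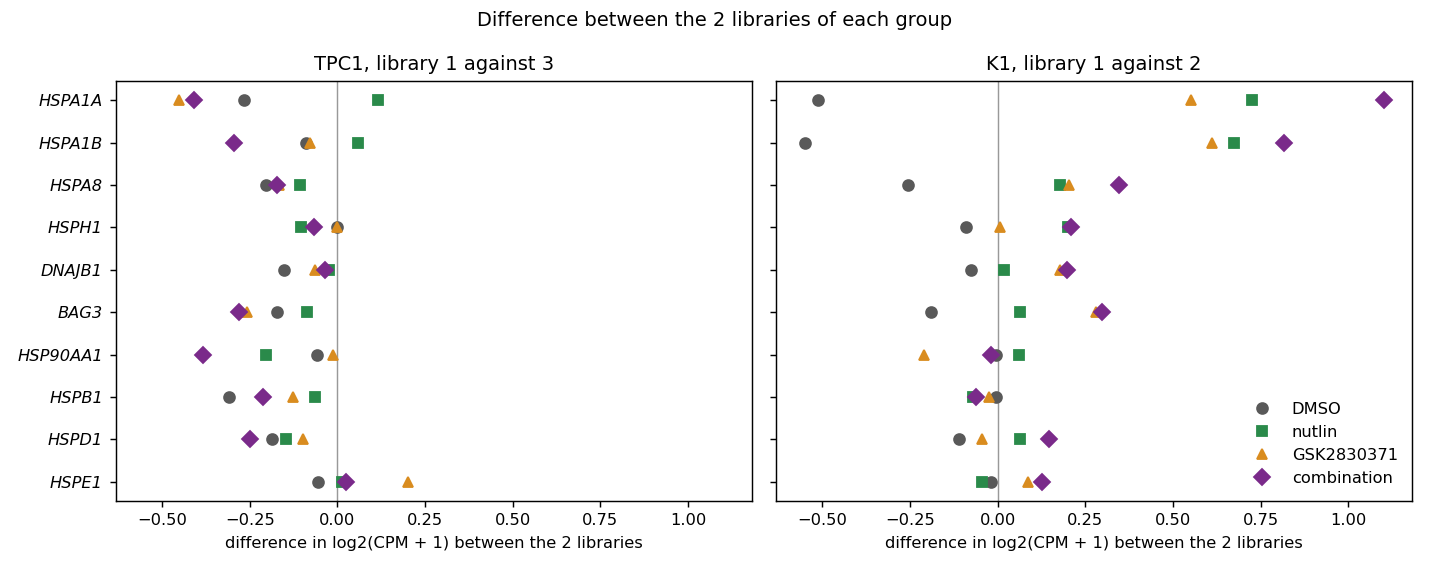
Difference in log2(CPM + 1) between the 2 libraries of each group (horizontal axis) for each member, TPC1 on the left (library 1 minus 3) and K1 on the right (1 minus 2); symbols are treatments. In K1 HSPA1A ranges from −0.51 in DMSO to 1.10 in the combination, and HSPB1 stays within 0.071 of 0.

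The regulators and partners of the members give the setting. Of the heat shock factor list 4 of 5 genes were tested and none was called in any of the 6 comparisons in either line. HSF1 had 140.1 and 155 CPM in TPC1 DMSO and 147 and 161 in the combination (0.035 ± 0.081, edgeR adjusted p = 0.723), and 102 and 103 against 101 and 95.7 in K1. HSF2, which binds the same elements, fell in TPC1 under nutlin by 0.43 on the log2 scale (edgeR adjusted p = 0.011). HSF1 acts after modification and trimer formation, which these counts do not show.

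The cochaperones moved down with the members in TPC1. Over all genes tested in TPC1, 18% were called lower and 17.5% higher under nutlin, and 21.7% and 22.5% in the combination. Of the 18 cochaperones, 9 were called lower and none higher under nutlin (median −0.59), and 9 lower and 1 higher in the combination (median −0.59). Those with the largest changes in the combination were FKBP5 (−1.99 ± 0.080), an immunophilin of HSP90, CACYBP (−1.86 ± 0.12), which binds HSP90 cochaperones, BAG2 (−1.52 ± 0.087), an exchange factor of HSP70, and AHSA1 (−1.33 ± 0.084), the activator of the HSP90 ATPase. In K1 2 of 18 were called lower in the combination, close to the share of all genes (8.09%). The 2 were FKBP5 (−1.21 ± 0.15) and BAG2 (−0.64 ± 0.084), with edgeR adjusted p of 1.63e-05 and 3.34e-05. AHSA1 was at 0.10 there (edgeR adjusted p = 0.212).

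The cytosolic chaperonin CCT/TRiC, which folds actin and tubulin, and its partner prefoldin followed a like course. In TPC1 6 of 14 genes were called lower under nutlin, where 18% of all genes were. In the combination 7 were lower and 1 higher (median −0.56), where 21.7% and 22.5% of all genes were. CCT2 (−1.20), CCT6A (−1.14), CCT5 (−1.08) and TCP1 (−0.83) moved most, with edgeR adjusted p from 9.91e-06 to 2.64e-05. None of 14 was called in K1, where 7.62% of all genes were called higher and 8.09% lower. CCT2 fell there by 0.48 on the log2 scale (edgeR adjusted p = 2.17e-05).

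Of 12 mitochondrial chaperones and proteases other than HSPD1 and HSPE1, 2 were called lower in the TPC1 combination, close to the share of all genes (21.7%). The 2 were the protease subunit AFG3L2 (−0.88 ± 0.089) and the mitochondrial HSP90 TRAP1 (−0.69 ± 0.12). None was called lower in the K1 combination, where 8.09% of all genes were.

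Other cytosolic heat shock genes divided by gene. Of 19 tested, 8 were called higher and 5 lower in the TPC1 combination, where 22.5% and 21.7% of all genes were. In K1 5 were called higher and 2 lower, where 7.62% and 8.09% of all genes were. The counts called lower were close to these shares. HSPA4L, a relative of HSPH1, rose in both lines. Its mean in TPC1 was 39.4 ± 3.46 CPM (SD, n = 2) in DMSO and 186 ± 4.15 in the combination, a log2 fold change of 2.21 ± 0.099 (SE), and in K1 17.6 ± 0.405 and 93.8 ± 1.66 CPM (2.42 ± 0.071). HSPB8, the small heat shock protein that works with BAG3, rose by 1.03 ± 0.080 and 1.49 ± 0.065. Both genes also rose under nutlin alone, HSPA4L by 1.98 and 1.86 and HSPB8 by 0.79 and 0.90. DNAJA1, an HSP40 like DNAJB1, fell in TPC1 by 1.10 on the log2 scale and was at −0.13 in K1 (edgeR adjusted p = 0.277). DNAJB5 was called in opposite directions, higher in TPC1 (1.05 ± 0.084, edgeR adjusted p = 5e-06) and lower in K1 (−0.65 ± 0.096, edgeR adjusted p = 9.87e-05).

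Most ATF4 targets rose in the combination in both lines. In TPC1 18 of 20 were called higher and none lower, with a median log2 fold change of 1.82 against −0.76 for the members. In K1 14 of 20 were called higher, with a median of 0.77 against 0.15. Over all genes, 22.5% were called higher in TPC1 and 7.62% in K1. Against nutlin alone the medians were 1.60 and 1.12 for ATF4 targets (18 and 17 called higher) and 0.068 and 0.11 for the members. In that comparison 6.46% of all genes were called higher in TPC1 and 1.16% in K1. DDIT3, the transcription factor CHOP, had 4.42 ± 0.576 CPM (SD, n = 2) in TPC1 DMSO and 185 ± 39.6 in the combination, against 13.1 ± 0.230 and 24.3 ± 0.558 CPM in K1. ATF3, CHAC1 (a glutathione-degrading enzyme) and SESN2 (an mTORC1 inhibitor) rose by 4.53, 3.57 and 3.48 in TPC1 and by 2.12, 2.43 and 2.29 in K1, with edgeR adjusted p of at most 7.42e-05. Under nutlin alone 8 ATF4 targets were called higher and 6 lower in TPC1, where 17.5% and 18% of all genes were. In K1 1 was called higher and 4 lower, where 3.84% and 5.43% of all genes were. The list was written with earlier results of these libraries known, so its direction is not independent evidence.

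ER chaperones, which answer to ATF6 and XBP1, moved in both directions. In the combination 4 of 16 were called higher and 3 lower in TPC1, close to the shares of all genes (22.5% and 21.7%). In K1 3 were called higher and none lower, where 7.62% and 8.09% of all genes were. The medians were 0.014 in TPC1 and 0.40 in K1. Against nutlin alone the medians were −0.25 and −0.0049. HYOU1, the HSP110 of the ER, rose by 1.16 ± 0.082 and 0.67 ± 0.050, and DNAJB9 by 1.36 ± 0.13 in TPC1. SERPINH1 (HSP47), a collagen chaperone under HSF1, and SDF2L1 fell in TPC1, by 0.77 and 0.85 on the log2 scale (edgeR adjusted p = 0.000176 and 2.24e-05).

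**Figure D5:**
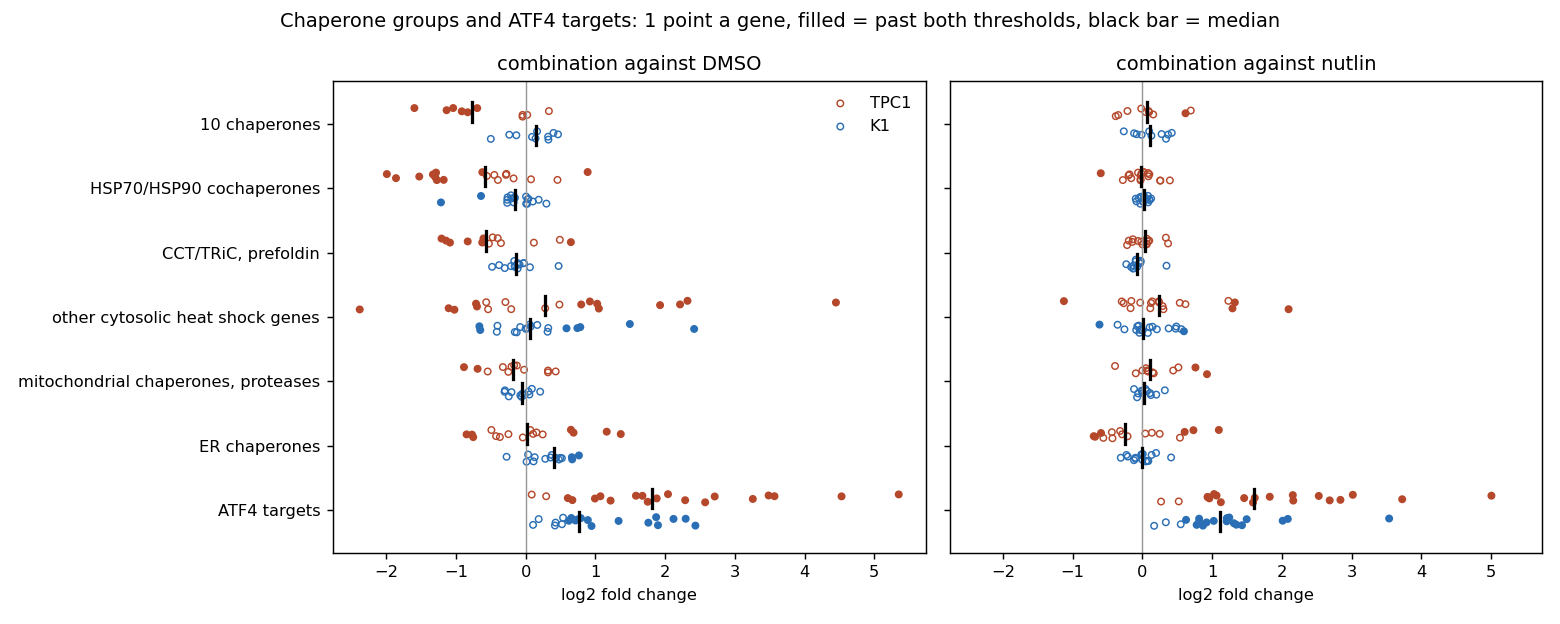
Log2 fold change of each gene (points; filled passed both thresholds) in the members and 6 other lists, combination against DMSO on the left and against nutlin on the right; red is TPC1, blue K1 and black bars are list medians. In the left panel the median of the 10 chaperones is −0.76 in TPC1 and 0.15 in K1, and that of the ATF4 targets 1.82 and 0.77.

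Genes of no list that followed DNAJB1 or HSPD1 most closely were sought by Pearson's r of log2(CPM + 1) over the 8 libraries of a line, which share 4 treatments, so r here mostly describes group levels. In TPC1 they were TIMM10, SFXN2 and TCEB3 for DNAJB1 (each 0.997) and FAM86A, LTV1 and NOP58 for HSPD1 (0.998 to 0.999), among 10492 genes. In K1 they were EIF4G1, PUF60 and CCND3 for DNAJB1 (0.993 to 0.998) and E2F6, TAF4B and ZDHHC6 for HSPD1 (0.946 to 0.961), among 10552 genes. No gene was shared between the lines.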

How the data were processed

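The authors' methods and the labels state that stranded poly(A)+ libraries were sequenced as single reads, aligned to GRCh37/hg19 with TopHat2 2.0.13, stripped of reads of low mapping quality with SAMtools and counted per gene and by strand with HTSeq 0.6.1. The deposited values are raw read counts for 25369 gene symbols in 16 columns, all of which were used. In TPC1 4 columns carry number 3, which no label holds, so they were assigned to their treatment only and TPC1 libraries are named 1 and 3.

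Counts were fitted per line with edgeR 4.0.16 (R 4.3.3; genes above 0.1 CPM in at least 2 libraries; TMM; quasi-likelihood test; 6 comparisons with Benjamini-Hochberg adjustment over all genes), and line differences over all 16 libraries (4 comparisons). SEs were taken as the log2 fold change over the root of the F statistic. Alternatives were DESeq2 1.42.0, other scalings and filters, fits of the compared groups alone, each library left out, a block for library number, the summed HSPA1A and HSPA1B counts and, added after the data were seen, removal of GC content and length (87.8% and 87.5% of tested genes had a canonical transcript in GENCODE v44 lifted to GRCh37).

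The difference between libraries 1 and 3 correlated at 0.518 to 0.724 across every pair of treatments in TPC1, over 12318 genes. The TPC1 libraries thus shared a difference by number, which comes from the column names. The number 3 libraries were also deeper, with 62853375 to 76648552 counts against 30789887 to 36896529 for number 1. Whether the number marks paired cultures or a difference in depth or sequencing cannot be told apart. In K1 the correlations ran from −0.387 to 0.408, so no such difference was shared across all treatments. The variance between the libraries of a group was at least 4.96 times that of counting alone (chi-square per degree of freedom), so none was a copy of the other's counts. This value does not tell whether they came from separate cultures. The fit was tested on simulated data with 15273 TPC1 and 15900 K1 genes: of those changed 2-fold, 100% passed in combination against DMSO, and of those changed 1.5-fold, 73.1% and 91%. Only genes of at least 5 CPM were changed, 67 for each of these folds in each line, and no effect of library number was simulated. The result does not cover HSPA1A in TPC1, which lay below 5 CPM. The members and lists were chosen with earlier results of these data known. Besides the members, up to 4 genes of each list were named, those with the largest called change in combination against DMSO at 5 CPM or more, with HSF1, HSF2 and genes called in opposite directions. Thyroid and epithelial markers were used for levels only. The result of 1 marker gene is not reported here.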

Additional observations from a re-analysis of the deposited data

Results flagged for a closer look

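The members below were selected because the test of the difference between the lines passed both thresholds, and all values are K1 minus TPC1 on the log2 scale from the edgeR fit of 16 libraries. For nutlin against DMSO the difference was 0.74 for HSPA8 (−0.15 in K1 and −0.92 in TPC1), 1.13 for HSPH1 (0.052 and −1.12), 0.97 for HSP90AA1 (0.043 and −0.96), 0.86 for HSPD1 (−0.23 and −1.13) and 1.14 for HSPE1 (−0.038 and −1.21). For the combination it was 1.43 for HSPH1 (0.33 and −1.13), 1.35 for HSP90AA1 (0.46 and −0.92), 0.88 for HSPD1 (−0.13 and −1.04) and 1.66 for HSPE1 (0.092 and −1.59). The lines also differ in medium, in depth and in how far nutlin raised CDKN1A (5.61 in TPC1 and 3.16 in K1), and the part of each cannot be told apart.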

How the results depend on the processing

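With 2 libraries a group, changes under 1.5-fold were at the limit of these data. The number of members called changed by over 1.5 times in 6 of 16 comparisons, in 2 of them only when a library was left out. With library number as a block, which the TPC1 libraries follow, 2 instead of 1 were called for TPC1 combination against nutlin. In K1, where the libraries share only a number and the DMSO libraries went against the others, the block gave 2 instead of 1 for GSK2830371 against DMSO and 2 instead of 1 for combination against GSK2830371. It changed no other count by that much. For K1 GSK2830371 against DMSO, no filter gave 2, the compared groups alone 2, DESeq2 0 and GC content and length removed 0. For K1 combination against GSK2830371, no filter gave 3 and GC content and length removed 0, and for the K1 interaction no filter gave 1 instead of 0. With each library left out in turn, the counts ran from 0 to 1 (TPC1 combination against nutlin), 0 to 2 (K1 GSK2830371 against DMSO), 0 to 2 (K1 combination against DMSO), 0 to 4 (K1 combination against GSK2830371), 0 to 1 (K1 interaction) and 0 to 1 (GSK2830371 effect between the lines), and from 7 to 8 for TPC1 nutlin against DMSO, where the combination gave 6 each time. No called member changed sign in any setting. Scaling by library size alone moved the median of all genes by over 0.1 once, to −0.11 in TPC1 combination against GSK2830371, where DNAJB1 was then called lower. The median of the other cytosolic heat shock genes in the TPC1 combination went from 0.28 to −0.0041 when only genes of at least 5 CPM were taken. With GC content and length removed, the calls over all genes went from 117 higher and 237 lower to 59 and 68 for K1 GSK2830371 against DMSO and from 284 and 104 to 40 and 43 for the K1 interaction. Library size alone shifted the balance of calls in TPC1 GSK2830371 against DMSO (166 higher and 85 lower), the TPC1 interaction (338 and 705), K1 combination against nutlin (from 184 and 242 to 228 and 196) and the K1 interaction (404 and 77). The cause of these changes was not tested.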

Other observations

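HSPA6 and CRYAB were picked after their values were seen, as weakly expressed heat shock genes outside the naming rule. HSPA6, an HSP70 that human cells make under strong stress, had 18 and 54 counts in the TPC1 DMSO libraries, 35 and 87 under nutlin, 11 and 32 under GSK2830371 and 100 and 216 in the combination. These are 0.475 and 0.756 CPM in DMSO and 2.81 and 3.66 CPM in the combination, a log2 fold change of 2.32 ± 0.26 (edgeR adjusted p = 4.36e-05). In K1 it had no count in any of 8 libraries, which allows up to 0.103 CPM at 3 counts a library. CRYAB, the small heat shock protein αB-crystallin, had 3 and 8 counts in TPC1 DMSO and 75 and 142 in the combination (4.45 ± 0.39, edgeR adjusted p = 9.05e-06), and in K1 2.99 and 3.23 CPM in DMSO against 5.73 and 4.99 in the combination (0.78 ± 0.14, edgeR adjusted p = 0.000358). Both genes rose in the TPC1 combination, where HSPA8, HSPH1, DNAJB1 and HSP90AA1 fell. HSPA6 has a near-identical neighbouring copy, HSPA7, and its counts are uncertain for that reason.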
